A study of Rattus norvegicus with 3 samples.

Results

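The genes described here encode the enzymes, transporters and carriers of mitochondrial and peroxisomal fatty acid oxidation. The pathway list names 33 genes, and a gene was taken up when the array platform's annotation gave it a probe set with a single gene symbol. That held for 32 of them, among 14506 genes measured this way. Decr2, the dienoyl-CoA reductase of peroxisomes, had no such probe set and was not analysed here. Hadha was the only one with 2 probe sets, and the brighter was used.

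RNA came from tibialis anterior muscle of male Wistar rats, 11 weeks old, on a diet with 45% of its energy from fat for 3 weeks. After 2 weeks of the diet 150 µg of plasmid was brought into the muscle by electroporation, and muscle was taken 8 days later. The 3 groups differed in the plasmid: one carried Plin5 (OXPAT) in a pcDNA3.1 backbone, one carried Plin2 (ADRP) in a pENTR backbone, both behind the CMV promoter, and the control was the empty pcDNA3.1 vector. Perilipins coat lipid droplets, and Plin5 is the form typical of oxidative tissue. Each group was 1 array of RNA pooled from 6 rats, so no spread between animals can be given, no difference below has a p-value, and the number of arrays limits the precision. The CMV promoter is active in any cell that takes up plasmid, and the share of fibres that did so is not stated. Insert and backbone cannot be told apart on the Plin2 array. The whole muscle was profiled, so fewer muscle fibres and less RNA per fibre cannot be told apart either.

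Fatty acids enter oxidation as acyl-CoA. In muscle the acyl group crosses the mitochondrial membranes bound to carnitine, and a spiral of dehydrogenation, hydration, a second dehydrogenation and thiolysis then removes acetyl-CoA at each turn. Electrons of the first dehydrogenation pass through the electron transfer flavoprotein to ubiquinone. Peroxisomes shorten very long and branched chains by a parallel set of enzymes. Many of these genes are known targets of the nuclear receptor PPARα and of estrogen-related receptors, which bind the hexamer AGGTCA alone or as a repeat.

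Values are log2 expression levels, so a difference of 1 is a doubling. Of the 32 genes, 31 passed a filter on dim genes (a mean level of at least 5.34, the 25th percentile of all genes), and the exception was Acot1. Counts and medians over the pathway cover all 32, and the 10879 genes past the filter served as background. A gene was counted as higher or lower when it differed by at least 1.5-fold (0.58 on the log2 scale). As a guide to measurement error, 420 genes had at least 2 probe sets past the dim level. Their 2 brightest differed by a median of 0.03 in Plin5 minus empty vector and 0.04 in Plin2 minus empty vector, and by up to 0.20 and 0.28 at the 90th percentile. These gaps say nothing of the spread between rats.

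On the Plin5 array the pathway stood slightly above the empty vector, and no gene reached 1.5-fold. Of the 32 genes 28 were above 0 (25.8% of background genes), 2 were below (Cpt1a and Acox3; 34.0% of background) and 2 were exactly equal (Hsd17b4 and Acot1; 40.2% of background). The median difference was 0.14, a 1.10-fold higher level, and the background median was 0.00. In the background 0.221% of genes were at least 1.5-fold higher and 1.42% were lower by that amount. At a smaller threshold of 1.2-fold, 2 genes were higher, Decr1 (0.28) and Hadh (0.27), where 1.52% of background genes were, and 0 were lower, where 5.71% were. All 32 differences lay between −0.17 and 0.28.

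On the Plin2 array most of the pathway was well below the empty vector. Of the 32 genes 21 (5.80% of background) were at least 1.5-fold lower, 0 (8.84% of background) were higher by that amount, and 26 were at least 1.2-fold lower (15.5% of background). The median difference was −0.68, a 1.60-fold lower level, beside 0.00 in the background. Of the 32, 28 were below 0 (31.7% of background), 1 was above (38.3%) and 3 were equal (30.0%). Cpt1a was that 1, and also the only gene at least 1.2-fold higher (19.4% of background). The lowest were Acadm at −1.07, Hadh at −1.04 and Ech1 at −1.03, and the highest was Cpt1a at 0.57. Genes with a mean level of at least 8 were more often lower on this array (9.15%), and 20 of the 29 pathway genes in that range were. The arrays were also set so that 14 fast fibre genes, markers of the main fibre type of this muscle, had a median of 0. The count of lower genes then came to 8 and the median to −0.46. Background shares were not recomputed after this shift, so 5.80% and 9.15% do not apply to the 8.

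**Figure D1:**
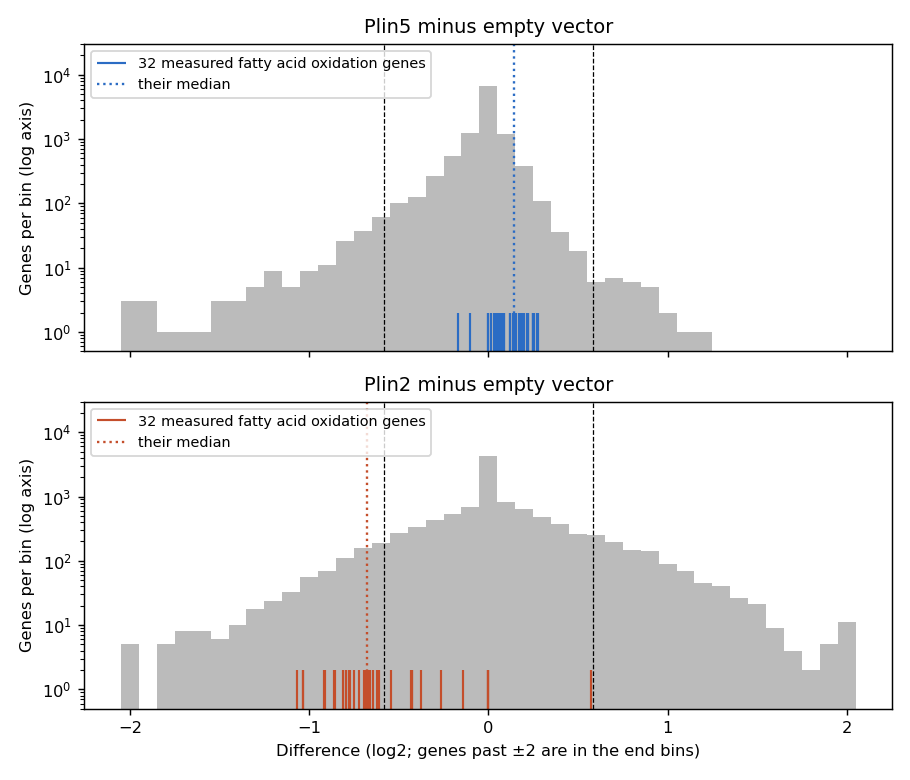
Histograms of the log2 differences of 10879 genes on the Plin5 array (upper) and the Plin2 array (lower) from the empty vector array, with a logarithmic count axis; coloured ticks are the 32 measured fatty acid oxidation genes, the dotted line is their median and dashed lines mark 1.5-fold. The ticks lie from −0.17 to 0.28 around a median of 0.14 in the upper panel, and from −1.07 to 0.57 around −0.68 in the lower.

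The introduced genes were each highest where they were introduced: Plin5 at 8.30 against 7.52 for the empty vector, and Plin2 at 10.71 against 9.99. Plin5 was lower on the Plin2 array, at 6.79 (−0.73), and Plin2 was at 10.08 (0.09) on the Plin5 array. Whether these signals came from plasmid or from the muscle's own genes was not tested. Markers of other cells differed on the same arrays. On the Plin2 array 21 of 22 measured macrophage markers were at least 1.5-fold higher (8.84% of background), with a median of 1.18. The summed intensity of that list (back on the linear scale) was 25393 on the empty vector, 53957 on the Plin2 and 19097 on the Plin5 array. Of 18 lymphocyte markers (T, B and natural killer cells) 15 were at least 1.5-fold higher on the Plin2 array (8.84% of background). Their median was 1.00, and their sum went from 6812 to 13940. On the Plin5 array the macrophage list had a median of −0.47, with 9 of 22 at least 1.5-fold lower (1.42% of background). There 4 of 8 tendon markers were also lower by that amount (median −0.76). The tendon list had a summed intensity of 5080 for the empty vector against 3112 for Plin5. The part of these other cells in the fatty acid oxidation differences was not tested. Of the muscle fibre markers, all 14 fast fibre and all 14 slow fibre genes passed the dim filter, which uses the mean of the 3 arrays. So did 10879 of all 14506 genes. The fast fibre list had a median of 0.01 on the Plin5 and −0.22 on the Plin2 array, with summed intensities of 158477 (empty vector), 160980 (Plin5) and 133654 (Plin2). All 14 were below 0 on the Plin2 array (31.7% of background), and 3 were at least 1.5-fold lower (5.80%). The lowest of them was the myosin heavy chain Myh2, at −0.98 (0.24 on the Plin5 array). The slow fibre list, which marks slow oxidative fibres, stood at 0.18 and −0.27. On the Plin5 array 12 of its 14 genes were above 0 (25.8% of background). On the Plin2 array they were split, with 6 at least 1.5-fold lower (5.80% of background) and 5 above 0 (38.3%). They ran from slow myosin heavy chain Myh7 at −1.75 (0.44 on the Plin5 array) to the muscle LIM protein Csrp3 at 0.40. Csrp3 was chosen after its value was seen.

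Acsl1, the long-chain acyl-CoA synthetase that activates fatty acids in muscle, stood at 11.34 on the empty vector, 11.59 on the Plin5 and 10.48 on the Plin2 array. Its differences were 0.25 and −0.86, a 1.81-fold lower level with Plin2. Entry by carnitine showed a contrast between isoforms. Cpt1b, the muscle form of carnitine palmitoyltransferase and the controlled step of entry, stood at 11.75, 11.84 and 11.11 on the empty vector, Plin5 and Plin2 arrays. Cpt1a, the form of liver and most other tissues, stood at 9.13, 8.96 and 9.71 in the same order. Thus Cpt1b was lowest on the Plin2 array (−0.65) and Cpt1a was highest there (0.57), just short of 1.5-fold. On the Plin5 array Cpt1a was the lowest of the 32 differences (−0.17) and Cpt1b was at 0.09. Cpt1a was thus opposite in sign to the other genes of this step on both arrays, which share the empty vector array. The macrophage list stood at 1.18 and −0.47 on the Plin2 and Plin5 arrays, in the same directions as Cpt1a. The lymphocyte (1.00 and −0.25), regeneration and satellite cell (0.80 and −0.19) and fibroblast (0.14 and −0.08) medians also had these directions. The other marker lists did not have both. The part of any of these lists in the Cpt1a difference was not tested.

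The inner enzyme Cpt2, which returns the acyl group to CoA in the matrix, stood at 11.06, 11.25 and 10.25 on the empty vector, Plin5 and Plin2 arrays. Its differences of 0.19 and −0.81 were the largest of the carnitine step upward on Plin5 and downward on Plin2. Mlycd, malonyl-CoA decarboxylase, removes the inhibitor of carnitine palmitoyltransferase; it was at 0.07 and −0.77. Crat, carnitine acetyltransferase, exports excess acetyl groups and was at 0.07 and −0.66. Both lay close to the empty vector on the Plin5 array and past 1.5-fold on the Plin2 array.

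**Figure D2:**
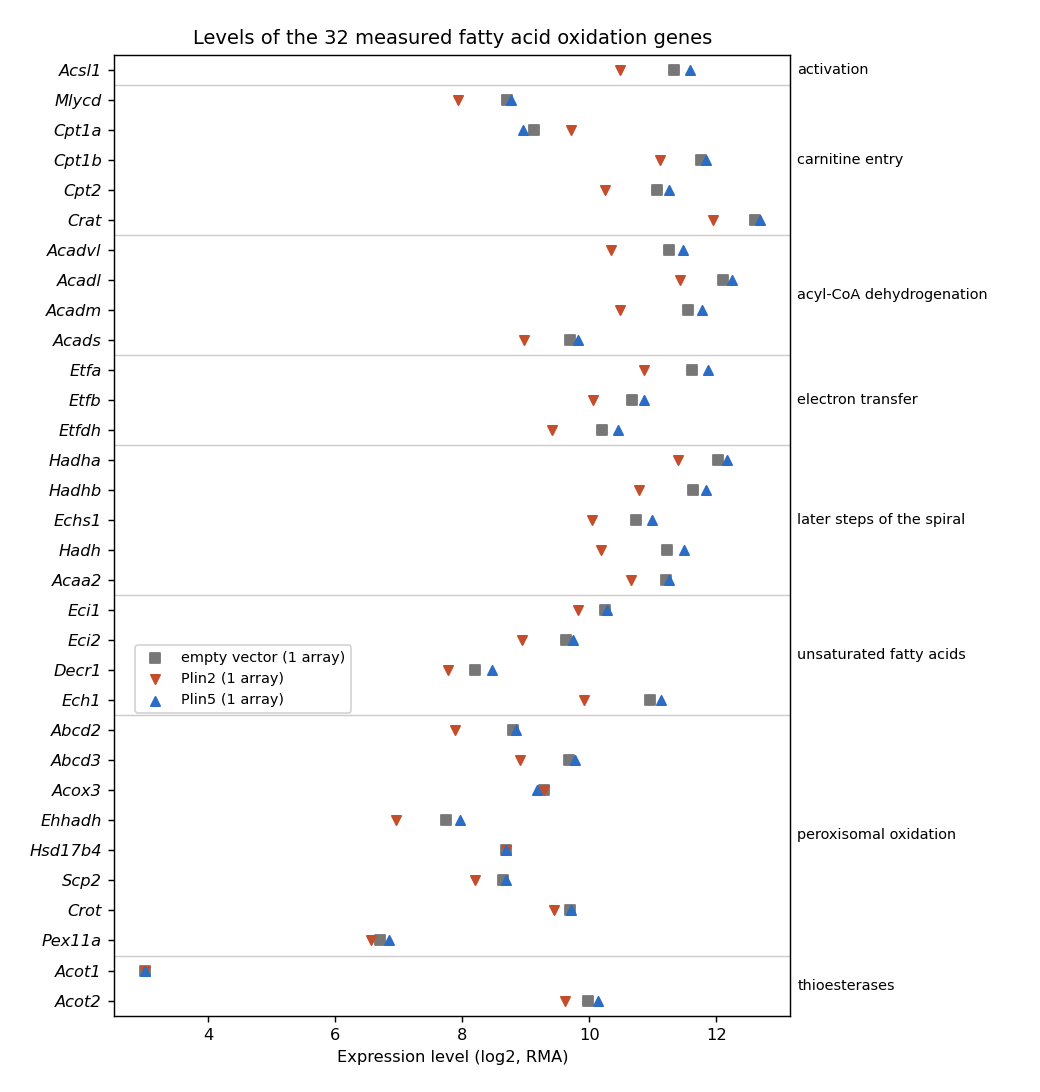
Expression levels (log2) of the 32 measured genes on the empty vector (squares), Plin5 (triangles up) and Plin2 (triangles down) arrays, 1 array each, ordered by pathway step. Plin2 lies left of the empty vector for 28 genes, and Cpt1a, at 9.71 on the Plin2 array, lies to its right.

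The 4 acyl-CoA dehydrogenases of the pathway list divide substrates by chain length. All 4 were above 0 on the Plin5 array (25.8% of background) and at least 1.5-fold lower on the Plin2 array (5.80% of background). Outside the list, Acad9 and Acad10 were at 0.00 on both arrays, and Acad11 was at 0.00 and −0.05. These other genes were chosen after their values were seen. Acadm, for medium chains, stood at 11.55 on the empty vector, 11.77 on the Plin5 and 10.48 on the Plin2 array. Its Plin2 difference of −1.07 (2.10-fold lower) was the largest of the pathway, and 0.993% of background genes were as low or lower. Acadvl, for very long chains, stood at 11.25, 11.47 and 10.34, with differences of 0.22 and −0.91. The long-chain enzyme Acadl was at 0.15 and −0.67, and the short-chain enzyme Acads at 0.12 and −0.72. The Plin2 differences did not follow chain length: the very long and medium chain enzymes were lower than the long and short chain ones.

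The 3 genes that carry electrons from these dehydrogenases to ubiquinone differed by similar amounts. Etfa, a subunit of the flavoprotein, stood at 11.61 on the empty vector, 11.86 on the Plin5 and 10.86 on the Plin2 array. Etfdh, the ubiquinone oxidoreductase that accepts its electrons, stood at 10.20, 10.45 and 9.41. Both were at 0.25 on the Plin5 array, and at −0.75 (Etfa) and −0.80 (Etfdh) on the Plin2 array. The other subunit, Etfb, was at 0.18 and −0.61. The median of the step on the Plin5 array, 0.25, was the highest among the steps with at least 3 genes.

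Hadha and Hadhb encode the subunits of the trifunctional protein, which carries out hydration, dehydrogenation and thiolysis of long chains at the inner membrane. Hadha stood at 12.02 on the empty vector, 12.17 on the Plin5 and 11.40 on the Plin2 array, and Hadhb at 11.64, 11.84 and 10.78. Their differences were 0.15 and 0.20 on the Plin5 array, and −0.62 and −0.85 on the Plin2 array. The second Hadha probe set stood at 8.92, 9.09 and 8.21, so its differences (0.17 and −0.71) were near those of the first. On the Plin2 array that probe set lay between the first Hadha probe set and Hadhb.

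For the soluble enzymes that handle shorter chains, Hadh, hydroxyacyl-CoA dehydrogenase, stood at 11.23 on the empty vector, 11.50 on the Plin5 and 10.19 on the Plin2 array. Its differences of 0.27 and −1.04 (2.05-fold lower) were the widest of this step on both arrays. Echs1, the short-chain enoyl-CoA hydratase, was at 0.25 and −0.69. Acaa2, the ketoacyl-CoA thiolase that closes the spiral, was nearest to the empty vector of the step at 0.05 and −0.54, and just missed 1.5-fold on the Plin2 array. Across the 12 genes of dehydrogenation, electron transfer and the later steps, all 12 were above 0 on the Plin5 array (median 0.21), and 11 were at least 1.5-fold lower on the Plin2 array (median −0.73). The percent of background genes above 0 and at least 1.5-fold lower were the 25.8% and 5.80% given above.

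**Figure D3:**
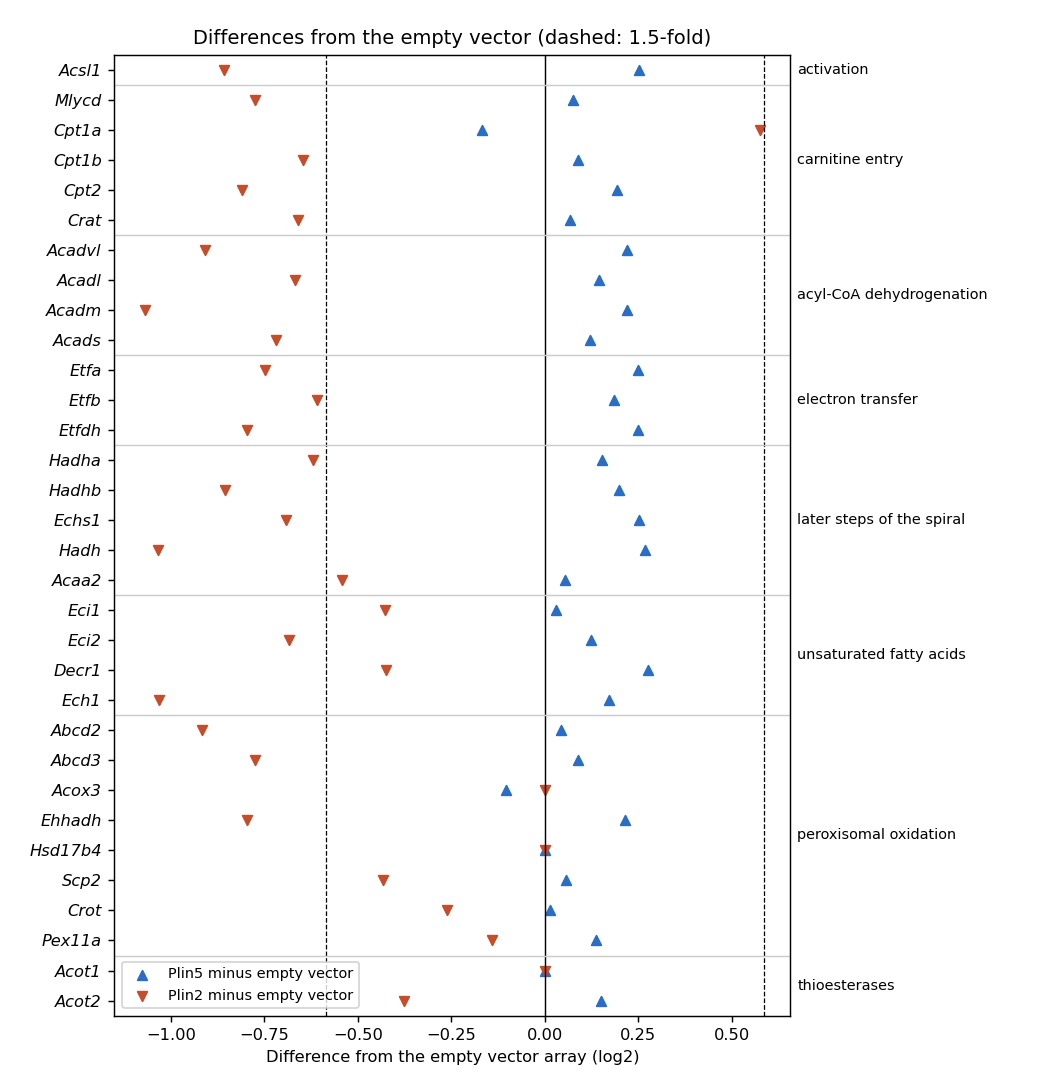
Log2 differences of each gene from the empty vector array on the Plin5 (triangles up) and Plin2 (triangles down) arrays, by pathway step, with dashed lines at 1.5-fold. On the Plin2 array 21 genes lie past the left line, and the steps from acyl-CoA dehydrogenation to thiolysis lie between −1.07 and −0.54; the peroxisomal genes reach from −0.92 to 0.00.

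Promoter sequences are shown for 4 genes: the trifunctional pair because both lie side by side, and Acadm and Acadvl because they were the lowest acyl-CoA dehydrogenases on the Plin2 array. Sequences are RefSeq windows on build GRCr8, from 250 bases before to 50 after the start of the gene. Of the 33 genes 28 had one, among them Decr2, which was not measured. Cpt1b, Acadl, Acaa2, Decr1 and Ech1 had none, so their promoters were not searched. Hadha (chr6:31907551-31907850, plus strand) and Hadhb (chr6:31907451-31907750, minus strand) start 301 bases apart and point away from each other, so 200 bases of the windows are the same DNA on opposite strands. Acadvl lies at chr10:55236656-55236955 (minus strand) and Acadm at chr2:245542815-245543114 (minus strand). Capitals mark GGGCGG (the GC box bound by Sp factors) in Hadha, Hadhb and Acadm, and the hexamer AGGTCA in Hadhb and Acadvl. In Acadvl they also mark an inexact repeat of that hexamer, with 1 mismatch. Matches on either strand are marked.
Hadha: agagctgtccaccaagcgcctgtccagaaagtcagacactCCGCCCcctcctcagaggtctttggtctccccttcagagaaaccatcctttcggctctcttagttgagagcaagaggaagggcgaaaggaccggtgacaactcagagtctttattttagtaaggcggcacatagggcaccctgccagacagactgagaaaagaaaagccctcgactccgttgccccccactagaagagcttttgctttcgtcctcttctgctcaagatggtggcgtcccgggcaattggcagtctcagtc
Hadhb: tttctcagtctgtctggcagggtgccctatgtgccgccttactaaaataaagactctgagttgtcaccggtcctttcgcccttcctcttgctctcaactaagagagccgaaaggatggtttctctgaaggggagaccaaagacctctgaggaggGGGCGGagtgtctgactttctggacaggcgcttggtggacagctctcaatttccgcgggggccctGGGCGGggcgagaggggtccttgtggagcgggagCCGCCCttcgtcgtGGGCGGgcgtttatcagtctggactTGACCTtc
Acadvl: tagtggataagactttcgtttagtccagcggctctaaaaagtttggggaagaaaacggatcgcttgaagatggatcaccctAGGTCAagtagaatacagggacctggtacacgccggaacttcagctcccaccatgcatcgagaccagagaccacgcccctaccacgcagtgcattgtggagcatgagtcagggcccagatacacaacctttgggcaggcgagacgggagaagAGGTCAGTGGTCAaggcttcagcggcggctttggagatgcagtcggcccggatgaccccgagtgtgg
Acadm: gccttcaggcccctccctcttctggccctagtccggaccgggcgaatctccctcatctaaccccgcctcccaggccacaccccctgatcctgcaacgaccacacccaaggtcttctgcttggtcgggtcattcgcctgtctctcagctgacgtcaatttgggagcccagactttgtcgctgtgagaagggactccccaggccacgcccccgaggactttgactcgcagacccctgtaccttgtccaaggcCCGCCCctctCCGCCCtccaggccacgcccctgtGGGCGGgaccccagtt

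The repeat searched, AGGTCANAGGTCA, is the spacing by which PPARα with its partner RXR binds DNA. An exact match was in 0 of the 28 windows, and in 0.0422% of the 9483 windows of background genes. With up to 1 mismatch, AGGTCAGTGGTCA in Acadvl was the only match, at −17 to −5 with the start counted as 0; 0.443% of background windows had one. This match contains one of the AGGTCA hexamers of Acadvl, and the other lies at −169. The hexamer was in 7 of 28 windows (background 12.5%): Echs1, Hadhb, Abcd2, Eci1, Acadvl, Eci2 and Hsd17b4. The estrogen-related receptor element TCAAGGTCA, which contains the hexamer, was in 0 windows (background 0.211%). The GC box was in 22 of 28 (78.6%, background 60.2%). These are matches of letters in short windows, not shown to be bound, and the genes with the hexamer had Plin2 differences from −0.92 (Abcd2) to 0.00 (Hsd17b4).

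Double bonds of unsaturated fatty acids need isomerases and a reductase before the spiral can go on. All 4 measured genes were above 0 on the Plin5 array (25.8% of background) and below 0 on the Plin2 array (31.7% of background). Ech1, the dienoyl-CoA isomerase, stood at 10.96 on the empty vector, 11.13 on the Plin5 and 9.92 on the Plin2 array, with differences of 0.17 and −1.03 (2.04-fold lower). Decr1, the mitochondrial dienoyl-CoA reductase, stood at 8.20, 8.47 and 7.77. Its 0.28 was the highest Plin5 difference of the pathway, while its Plin2 difference of −0.43 did not reach 1.5-fold. The isomerases Eci1 and Eci2 were at 0.03 and 0.12 on the Plin5, and at −0.43 and −0.68 on the Plin2 array. Ech1 and Decr1 were thus apart on the Plin2 array, and both act on chains with more than 1 double bond.

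The 8 peroxisomal genes included some well below the empty vector on the Plin2 array and some at or near it. On the Plin5 array their median was 0.05, and on the Plin2 array −0.35, with 3 of 8 at least 1.5-fold lower, beside medians of 0.18 and −0.71 and 18 of 22 for the genes of the mitochondrial steps, where 5.80% of background genes were lower by that fold. The 3 were Abcd2 and Abcd3, which import acyl-CoA, and the bifunctional enzyme Ehhadh. Abcd2, a transporter of very long chains, stood at 8.80 on the empty vector, 8.84 on the Plin5 and 7.88 on the Plin2 array, a Plin2 difference of −0.92. Abcd3, which also imports branched chains, stood at 9.68, 9.77 and 8.90. Ehhadh, with hydratase and dehydrogenase activity, stood at 7.75, 7.96 and 6.95, and its 0.21 on the Plin5 array was the highest of this group.

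The remaining peroxisomal genes lay nearer to the empty vector on the Plin2 array. Hsd17b4, the D-bifunctional protein that acts on branched chains and bile acid precursors, had the same value, 8.68, on all 3 arrays. Acox3, an acyl-CoA oxidase for branched chains, stood at 9.28 on the empty vector and the Plin2 array and 9.18 on the Plin5 array (−0.10). Ehhadh and Hsd17b4 catalyse the same kinds of reaction, yet on the Plin2 array one was at −0.79 and the other exactly equal. Scp2, whose gene encodes a peroxisomal thiolase, was at 0.06 and −0.43. Crot, which prepares shortened chains for export as carnitine esters, was at 0.02 and −0.26, and the peroxisome division factor Pex11a at 0.14 and −0.14. Exactly equal values are common in this table (40.2% of background genes between Plin5 and empty vector, 30.0% between Plin2 and empty vector), so a difference of 0.00 is a weak measurement of no difference.

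Acot2, which splits acyl-CoA in the mitochondrial matrix, stood at 9.99 on the empty vector, 10.14 on the Plin5 and 9.61 on the Plin2 array, differences of 0.15 and −0.38. Acot1, its cytosolic counterpart, was listed at 3.01 on all 3 arrays, under the dim level, so nothing can be said of its change. Both genes are near-identical copies, so which of them the Acot2 probes read is uncertain.

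Members of the same enzyme family differed most on the Plin2 array, and genes outside the 33 are set beside them here; those not covered by the naming rule (Acsl3, Acsl4, Acsl5, Acot7 and Acot9) were chosen after their values were seen. Among the acyl-CoA synthetases, Acsl6 stood at 10.02 on the empty vector, 10.12 on the Plin5 and 8.45 on the Plin2 array, a Plin2 difference of −1.57 next to −0.86 for Acsl1. Acsl5 stood at 8.41, 8.41 and 8.99 and was the reverse, at 0.59. Acsl3 (0.02) and Acsl4 (0.00) did not differ by more than the median gap between probe sets. Thus within this family 2 genes were at least 1.5-fold lower (5.80% of background) and 1 was just past that fold upward (8.84% of background). In the thioesterase family Acot13 was at −1.10, Acot7 at −0.41 and Acot9 at 0.00 on the Plin2 array. The acyl-CoA oxidase Acox2 was at 0.28 on the Plin5 and −1.25 on the Plin2 array, where its level of 5.32 lay under the dim level, while Acox3 was at −0.10 and 0.00.

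**Figure D4:**
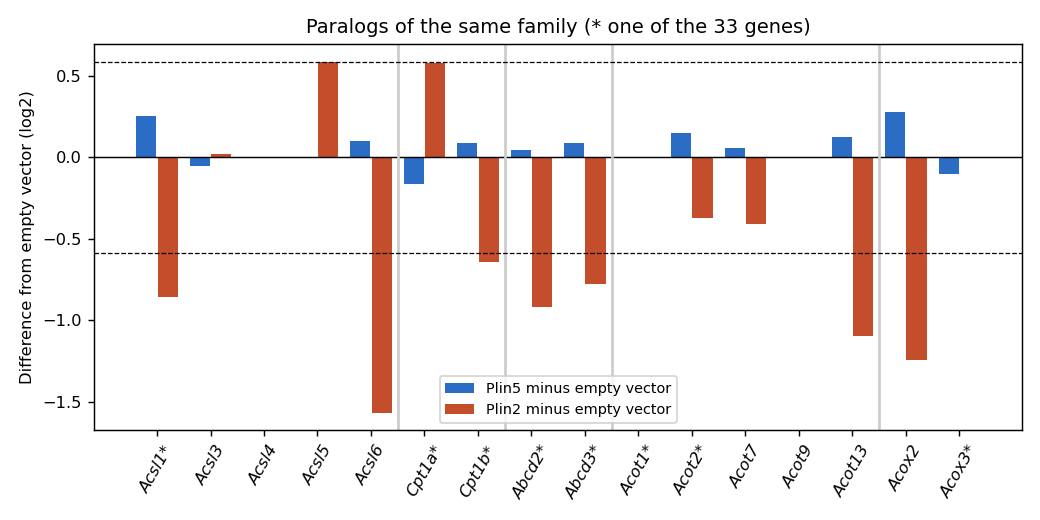
Log2 differences from the empty vector on the Plin5 (first bar) and Plin2 (second bar) arrays for paralogs of 5 enzyme families; an asterisk marks the 33 pathway genes and dashed lines mark 1.5-fold. Acsl5 (0.59) and Cpt1a (0.57) point up on the Plin2 array, and Acsl6 (−1.57) and Cpt1b (−0.65) point down; a gene with no bar had a difference near 0.

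Other genes of the pathway were taken from lists. Of 18 further genes of the mitochondrial pathway, 8 were at least 1.5-fold lower and 1 (Acsl5) higher on the Plin2 array, with a median of −0.44, and 0 passed that fold on the Plin5 array (median 0.08). The carnitine-acylcarnitine carrier Slc25a20, which links Cpt1b to Cpt2, was at 0.17 and −1.01. Of 11 further peroxisomal enzymes 2 were at least 1.5-fold lower on the Plin2 array (median −0.20; 0.00 on the Plin5 array), Acox2 and Phyh (−0.86), which starts the oxidation of phytanic acid. None of 12 peroxins, the proteins that build peroxisomes, passed 1.5-fold on either array, and their median was 0.00 on both; with 8.84% and 5.80% of background genes past that fold on the Plin2 array and 0.221% and 1.42% on the Plin5 array, higher and lower, so few genes show nothing particular to peroxins. The lowest of them on the Plin2 array was Pex13 (−0.46).

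A pair of neighbouring mitochondrial pathways stood at similar values. The 17 measured genes of the TCA cycle with pyruvate dehydrogenase had medians of 0.13 on the Plin5 and −0.58 on the Plin2 array, with 8 at least 1.5-fold lower on the latter, led by Dlat (−0.79). The 30 measured complex I subunits had medians of 0.10 and −0.64, with 17 at least 1.5-fold lower on the Plin2 array, led by Ndufa3 (−0.84). In the background 5.80% of genes were lower by that fold on this array, and 9.15% of genes with a mean level of at least 8. The fatty acid oxidation medians of 0.14 and −0.68 were close to both. Acadm, Hadh, Ech1, Abcd2, Acadvl, Acsl1 and Hadhb were lower on the Plin2 array than any gene of either list. No test of these differences between lists was possible with 1 array per group.

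**Figure D5:**
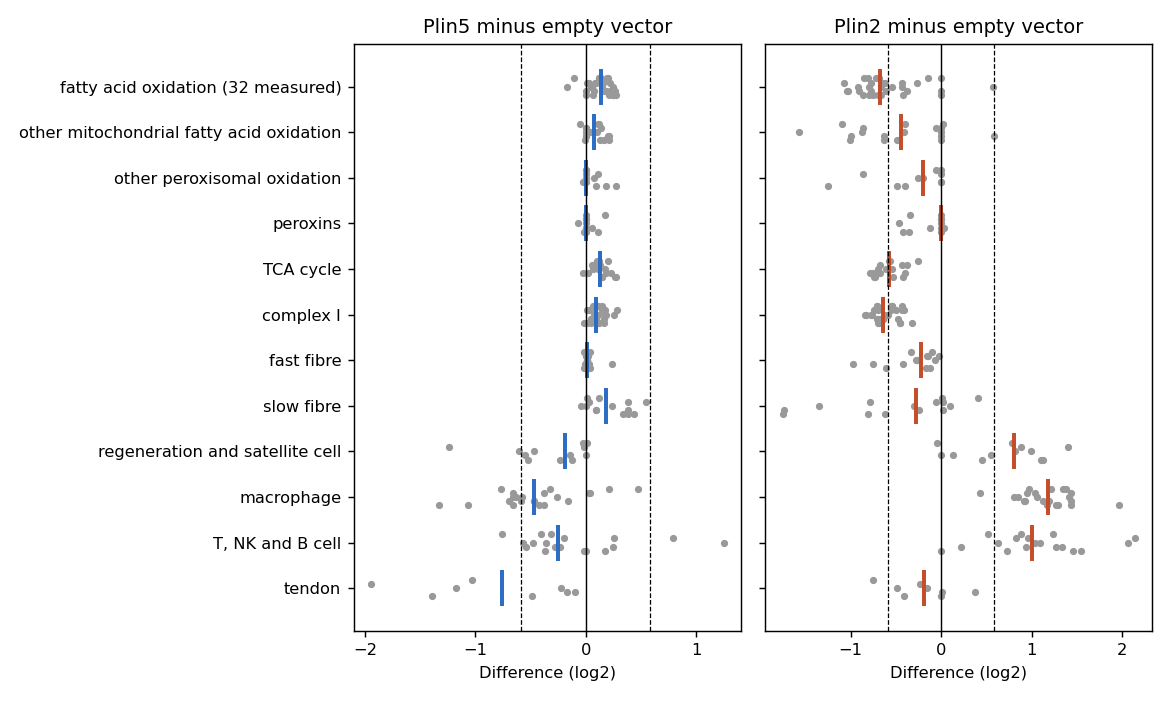
Log2 differences from the empty vector for every measured gene (points) of the fatty acid oxidation genes, related pathways and cell type marker lists on the Plin5 (left) and Plin2 (right) arrays; thick bars are list medians and dashed lines mark 1.5-fold. Fatty acid oxidation (0.14 and −0.68) lies next to the TCA cycle (0.13 and −0.58) and complex I (0.10 and −0.64), and the macrophage list lies at −0.47 and 1.18.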

How the data were processed

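The deposited table held log2 expression values that the authors made with RMA, per the submitters' processing notes; no version, chip description or build is stated there, and log2 was inferred from RMA and the range of values. RMA forces the arrays to a common distribution, so a change in total RNA is hidden, and its probe summary gives many exactly equal values. No further normalization was applied. Among 29214 probe sets 15310 had 1 gene symbol in the platform annotation; the brightest per gene was kept, and all 32 symbols matched RefSeq (GRCr8). Of 256 symbols in 5 pathway and 12 marker lists, 224 were found, 1 through a synonym.

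Each comparison was the difference between 2 arrays. With 1 array per group no test was made. Genes and lists were chosen with earlier results of these data known. All pathway genes could be named; of other lists, the 3 genes with the largest difference on either array. Counting was tested on simulated data. Alternatives covered fold, dim filter, centring, quantile normalization, loess, averaged probe sets and left-out paralogs. Computation used pandas 2.3.3, numpy 2.4.6, statsmodels 0.14.6 and matplotlib 3.10.9 in Python 3.11.15.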

Additional observations from a re-analysis of the deposited data

How the results depend on the processing

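With 1 array per group no alternative leaves out a replicate, and no paired analysis was possible because each group has 1 array. The direction of both medians and of each Plin5 difference above or below 0 held under centring, quantile normalization, loess and averaged probe sets. The count of genes at least 1.5-fold lower on the Plin2 array, 21 of 32, fell to 18 under quantile normalization. Under loess it was 16 of 31. Background shares were not recomputed under centring, quantile normalization or loess, so the counts under them have no share beside them. On the Plin2 array the sign turned for 1 of 29 genes, Pex11a, when the fast fibre genes were set to 0. With a 1.2-fold threshold the higher counts were 2 (Plin5) and 1 (Plin2), and with 2-fold the lower count on Plin2 was 3. Centring each array on its median gave medians of 0.18 (Plin5) and −0.73 (Plin2), loess gave −0.62 for Plin2, and fast fibre centring gave −0.46, with 8 lower and 1 higher (Cpt1a, 0.79). The changed counts at 1.2-fold and 2-fold follow from the threshold itself. Those under centring follow from the constants subtracted, −0.038 (Plin5) and 0.053 (Plin2) for the array medians and −0.22 (Plin2) for the fast fibre genes. For loess and quantile normalization the cause was not tested. Of the alternatives chosen after seeing the data, keeping only genes past the dim filter or above a level of 8 left both medians within 0.01. What the arrays cannot show is the spread between rats, and exactly equal values limit what can be said of small differences.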

Other observations

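The other marker lists stood as follows on the Plin5 and Plin2 arrays. Genes of regeneration and satellite cells had medians of −0.19 and 0.80. Of these, 7 of 12 were at least 1.5-fold higher on the Plin2 array (8.84% of background), led by the fusion factor Mymk (1.41). Fibroblast markers had medians of −0.08 and 0.14, and endothelial markers 0.06 and 0.00. Adipocyte markers had medians of 0.00 on both arrays, with the complement factor Cfd at −0.35 and 0.47. Of these 10 markers 7 passed the dim filter, and 7 were exactly equal to the empty vector on each array. Their medians are thus a weak measurement of no difference. Mast cell markers had medians of 0.05 and −0.37, with the carboxypeptidase Cpa3 at −1.20 on the Plin2 array. The 4 erythroid markers had medians of −0.14 and −0.41 and differed among themselves: the embryonic globin Hbe1 was at −3.05, from a level under the dim level on the Plin5 array (4.68), and 0.90, and Alas2, which starts heme synthesis, at −1.04 on the Plin2 array. Of 7 neutrophil markers 1 passed the dim filter, Csf3r, at −0.35 and 1.66.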
